A study of Mus musculus with 6 samples.

Results

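Leptin-receptor neurons outside the AgRP, POMC and Ppp1r17 neurons were taken from 6 single-nucleus RNA libraries of the mouse hypothalamus. A nucleus was a member with at least 1000 unique molecular identifiers (UMIs), at least 2 UMIs over the neuronal genes Snap25, Syt1 and Rbfox3, at least 3 UMIs of Lepr, fewer than 2 of Agrp, Pomc below 8 per 10000 UMIs, and no UMI of Ppp1r17. The rule found 351 nuclei among 34707 neurons and 39953 barcodes, and they are called Lepr neurons here. The animals were male C57Bl/6 mice aged 6 to 8 weeks. Food was freely available to 12 of them and was withdrawn for 16 h from the other 6, with no allele or agent beyond the diet given in the labels. Each library was 1 sorted tube of a pool of 6 mice, so the 4 ad-libitum-fed libraries came from 2 pools prepared on separate days and the 2 fasted libraries from 1 pool. The labels do not say which ad-libitum-fed libraries shared a pool, and no value below could be followed to a single mouse.

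Leptin is the adipose hormone that reports fat stores to the brain. Its receptor, encoded by Lepr, signals through the kinase JAK2 to the transcription factor STAT3, and Socs3 encodes the feedback inhibitor that this pathway induces. The AgRP and POMC neurons of the arcuate nucleus are the best known leptin targets, but GABAergic and glutamatergic neurons of the dorsomedial, lateral and ventral premammillary hypothalamus also carry the receptor. Slc17a6 encodes the vesicular glutamate transporter of most hypothalamic glutamatergic neurons, and Gad1 and Gad2 encode the enzymes that make GABA. Lepr lies on chromosome 4 of GRCm38 (101717404 to 101815352, plus strand), and because the deposited counts are given per gene, the signalling and the short receptor forms were not told apart.

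The deposited libraries differed in depth. The ad-libitum-fed libraries held 39556605 and 31757655 UMIs (libraries 1 and 2) and 59083864 and 59940795 (libraries 3 and 4), against 36177621 and 35567902 in the fasted pair. Lepr neurons had a median of 5935, 5650.5, 11292 and 11837 UMIs in ad-libitum-fed libraries 1 to 4 and of 7669.5 and 7718 in the fasted ones. Neurons with no Lepr UMI inside the same limits, of which there were 27043, were shallower in every library, with medians of 4589.5, 4731, 8712 and 8725 and then 6683 and 6682. The rule counts Lepr UMIs without regard to depth, so a deep nucleus reaches it more easily.

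In ad-libitum-fed Lepr neurons 0.384%, 0.447%, 1.74% and 1.76% of UMIs came from genes for ribosomal proteins, and in fasted ones 0.272% and 0.260%. Ad-libitum-fed libraries 3 and 4 stood apart from all others in this and in mitochondrial transcripts, which made up 0.192% and 0.206% there, 0.0547% and 0.0490% in libraries 1 and 2, and 0.0158% and 0.0136% in the fasted ones. Across 8131 genes the summed log2(CPM + 1) of the members correlated at 0.862 between ad-libitum-fed libraries 1 and 2 and at 0.959 between 3 and 4, but at 0.736 between 1 and 3, below the 0.877 between ad-libitum-fed library 1 and fasted library 1. These are descriptions across genes, and CPM stands for a gene's UMIs scaled to a common total, from the nuclei summed. Any 2 libraries shared at most 17 barcode sequences among their barcodes.

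Members numbered 47, 34, 65 and 71 with food and 66 and 68 after the fast, which is 0.629%, 0.585%, 1.04% and 1.13% of their neurons and then 1.46% and 1.55%. Both fasted shares lay above all 4 ad-libitum-fed shares, but the share counts nuclei past a UMI threshold, and ad-libitum-fed libraries 1 and 2 were the shallowest. The mean share was 0.847% ± 0.280 (SD, n = 4 libraries of 2 pools) with food and 1.5% ± 0.0618 (SD, n = 2 libraries of 1 pool) after the fast. This contrast draws on the gene that chose the members, and it is given without a test. Over all neurons inside the Agrp, Pomc and Ppp1r17 limits, with no threshold on Lepr, the gene stood at 23.0, 22.1, 17.8 and 18.4 CPM with food and at 27.5 and 29.2 CPM after the fast. When each of these neurons was thinned to 2000 UMIs, 3.96%, 4.01%, 3.14% and 2.97% of the ad-libitum-fed ones had a Lepr UMI and 4.50% and 4.31% of the fasted ones. Of 919 oligodendrocyte nuclei, which serve as the background of free RNA, at most 1 per library held a Lepr UMI. These were 1 of 105, 1 of 96, 0 of 13 and 1 of 14 with food and 1 of 338 and 1 of 353 after the fast. Ad-libitum-fed libraries 3 and 4 thus held too few of these nuclei to measure the background there.

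The limits set how the members look. In the ad-libitum-fed libraries 96, 67, 89 and 89 neurons inside the other limits held exactly 2 Lepr UMIs and so missed the rule, and in the fasted ones 84 and 70 did. Just inside, 26, 19, 31 and 36 ad-libitum-fed members and 28 and 27 fasted members held exactly 3, and 9, 8, 17 and 17 and then 20 and 28 held at least 5. The Agrp limit removed 11, 5, 20 and 27 of the Lepr nuclei of ad-libitum-fed mice, or 18%, 10.4%, 18.7% and 22.5% of those with 3 Lepr UMIs or more, and 77 and 82 of the fasted ones, or 50.7% and 52.2%. A member could still hold 1 Agrp UMI, as 5, 8, 16 and 10 ad-libitum-fed and 17 and 19 fasted members did. A doublet score marked 20 of the 351 members.

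The label was checked against markers of other cells. Of 6 genes of tanycytes and ependymal cells 3 were detected, led by Col23a1 at 23.9 CPM, and Rax, Dio2 and Ccdc153 had no UMI in any member. The list summed to 17.2, 28.0, 33.7 and 35.0 CPM in the ad-libitum-fed members and to 30.1 and 41.2 CPM in the fasted ones, above Lepr-0 neurons, as the neurons with no Lepr UMI are called, in ad-libitum-fed libraries 2 to 4 (26.7, 21.9 and 22.0 CPM). Of 5 endothelial genes 3 were detected, led by Pecam1 at 11.7 CPM, and Cldn5 and Ly6c1 were at 0. Their sum was 10.3, 9.34, 22.5 and 28.9 CPM and then 5.32 and 10.8 CPM. In Lepr-0 neurons it was 7.67, 9.14, 6.41 and 8.52 CPM and then 8.19 and 10.3 CPM. Of 5 POMC neuron markers 4 were detected and Prdm12 was at 0. They summed to 413, 397, 1825 and 1854 CPM with food and to 119 and 131 CPM after the fast, led by Cartpt. Lepr-0 neurons had 128, 142, 304 and 297 and then 74.5 and 87.7 CPM. Of the 4 that the rule did not use, Cartpt and Pcsk1 were higher in the test against Lepr-0 neurons described further on, as 1.88% of all genes were.

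All 6 AgRP neuron markers were detected, led by Sst at 53.7 CPM, although the rule limited Agrp. They summed to 82.5, 79.4, 132 and 199 CPM in ad-libitum-fed and to 145 and 159 CPM in fasted members, against 106, 96.5, 335 and 330 and then 67.1 and 61.0 CPM in Lepr-0 neurons. The members thus lay below Lepr-0 neurons in all 4 ad-libitum-fed libraries and above them in both fasted ones. Of the 4 Ppp1r17 neuron markers 3 were detected, with Ppp1r17 at 0 by the rule, and they lay above Lepr-0 neurons in ad-libitum-fed libraries 2 (28.0 against 22.7 CPM) and 4 (27.7 against 27.1 CPM). The 4 ventromedial markers, all detected and led by Slc17a6, lay above in ad-libitum-fed library 4 (257 against 215 CPM) and fasted library 1 (92.2 against 89.4 CPM).

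Every microglial gene of 6 was detected, led by P2ry12 at 12.3 CPM, with sums of 31.0, 56.0, 6.25 and 7.24 CPM and then 42.5 and 17.9 CPM. These lay above Lepr-0 neurons in ad-libitum-fed library 2 (40.6 CPM) and fasted library 1 (23.7 CPM) and below them in the others. The 6 astrocyte genes, all detected and led by Slc1a3, lay above in ad-libitum-fed libraries 3 (28.7 against 20.1 CPM) and 4 (18.1 against 15.5 CPM), and the 5 oligodendrocyte precursor genes, all detected and led by Pdgfra, above in library 3 (18.7 against 18.2 CPM). The 7 oligodendrocyte genes summed to 72.2, 60.7, 97.4 and 105 CPM in the ad-libitum-fed members and to 95.7 and 120 CPM in the fasted ones, led by Mbp, with 7 of 7 detected. That was below the 99.3 to 284 CPM of Lepr-0 neurons, in each library. The 6 fibroblast genes, all detected and led by Aebp1 at 27.3 CPM, summed to 0 CPM in ad-libitum-fed libraries 1 and 2, to 186 and 293 CPM in libraries 3 and 4, and to 3.55 and 8.96 CPM in the fasted ones. Only 3 members held 2 or more of these UMIs, and the counts of calls, the named genes and the Slc17a6 share were also computed without them. Beyond that, and the settings with Agrp and Pomc at 0 or without sub-clusters led by such markers, the part of these cells in the results was not tested.

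Summed over the 6 libraries, the members divided into a smaller glutamatergic and a larger GABAergic side, but in ad-libitum-fed library 4 the order was reversed. By the larger of the Slc17a6 count and the sum of Gad1 and Gad2, 108 nuclei were Slc17a6 nuclei, 157 were Gad nuclei, and 86 had neither count larger. Slc17a6 nuclei made up 40.8% of the 265 nuclei that could be classed (95% exact binomial interval 34.8% to 46.9%, counting error only). Ad-libitum-fed libraries 1 to 4 held 10, 6, 26 and 38 Slc17a6 nuclei and 13, 17, 32 and 25 Gad nuclei, and fasted libraries 1 and 2 held 15 and 13 against 36 and 34. By presence of UMIs alone, 144 nuclei had Gad UMIs only, 96 had Slc17a6 UMIs only, 33 had both and 78 had no UMI of either kind. Undecided nuclei made up 51.1%, 32.4%, 10.8% and 11.3% of the ad-libitum-fed members and 22.7% and 30.9% of the fasted ones, least in the 2 deepest libraries.

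The Slc17a6 share of classed nuclei was 43.5%, 26.1%, 44.8% and 60.3% with food and 29.4% and 27.7% after the fast. The fasted shares lay inside the range of the ad-libitum-fed ones, just above the lowest. The mean was 43.7% ± 14 (SD, n = 4) with food and 28.5% ± 1.24 (SD, n = 2) after the fast, a difference of -15.1 percentage points with p = 0.333 in an exact two-sided permutation test over the 6 libraries, which cannot go below 0.0667 and takes split tubes of a pool as separate samples. The spread between ad-libitum-fed libraries was therefore as wide as the difference. With a limit of 2 Lepr UMIs both fasted shares, 31.1% and 34.7%, lay below all ad-libitum-fed ones, 51.4%, 38.7%, 49.6% and 59.3% (exact permutation p 0.0667, the smallest possible). After thinning to 2000 UMIs they did so too, at 20.0% and 19.2% against 25.0%, 26.7%, 34.3% and 51.7% (exact permutation p 0.133). Without doublets, with a limit of 5 Lepr UMIs and with Agrp and Pomc at 0 the fasted share was lower on average, with exact permutation p of 0.267, 0.533 and 0.2. With Agrp and Pomc at 0 the shares were 52.9%, 21.4%, 57.1% and 58.3% with food and 25.0% and 18.8% after the fast. Which side was larger thus depended on the library and the limits.

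**Figure D1:**
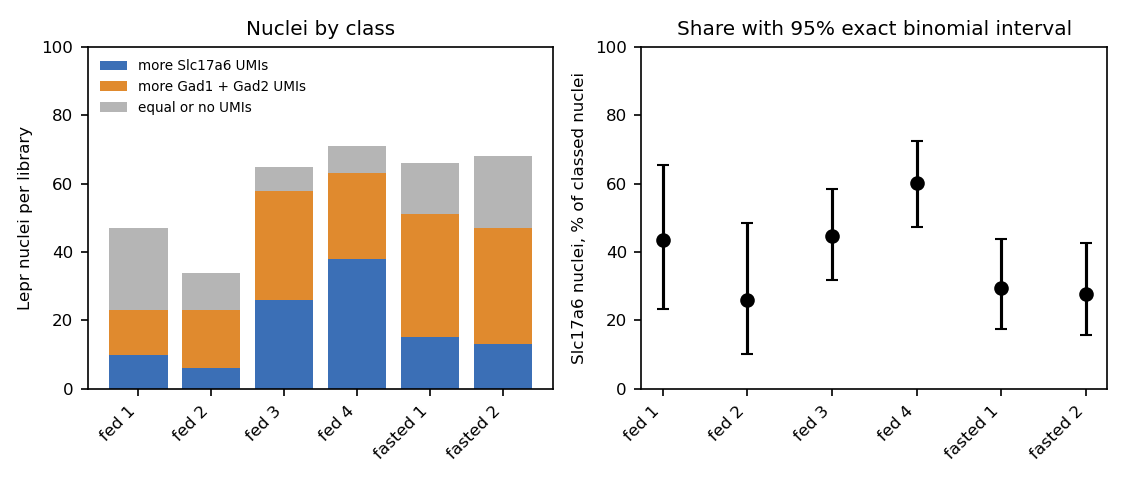
Left, Lepr nuclei in each library by class, as stacked counts of Slc17a6 nuclei, Gad nuclei and nuclei with neither count larger. Right, Slc17a6 nuclei as a percentage of the classed nuclei, with 95% exact binomial intervals; the fasted libraries, at 29.4% and 27.7%, sit within the ad-libitum-fed range of 26.1% to 60.3%.

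The sides differed in many genes besides the 3 that defined them. Slc17a6 nuclei were higher in the factors Irx3, Irx5, Lmx1a and Foxp2, in the serotonin receptor gene Htr2c and in the monoamine genes Ddc and Slc18a2. Gad nuclei were higher in the peptides Nts, Gal and Cartpt and in the factors Isl1 and Prox1. Of 7764 genes tested with the pool as a block, 437 passed an edgeR quasi-likelihood adjusted p of 0.05, which is 5.63%. Among them 248 (3.19%) were higher in Slc17a6 nuclei and 189 (2.43%) in Gad nuclei. The 3 genes of the division are among the 437 and are described above. By DESeq2 the count was 174, and 174 of these were among the 437. Of 50 named genes followed across the alternatives, 30 were the same by DESeq2 and 20 were weaker.

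Irx3 and Irx5, Iroquois homeobox genes, were among the genes higher in Slc17a6 nuclei. Irx5 (chromosome 8, 92357625 to 92376286, plus strand) stood at 56.0, 92.2, 45.4 and 37.8 CPM in Slc17a6 nuclei with food and at 88.8 and 67.2 CPM in those after the fast. In Gad nuclei it stood at 0, 8.78, 0 and 10.5 CPM and then at 0 and 4.05 CPM, so the sides did not overlap, with a log2 difference of 3.89 ± 0.54 (SE; edgeR adjusted p 1.07e-05). Irx3 differed by 4.73 ± 0.66 on the log2 scale, at 14 to 69.1 CPM in Slc17a6 nuclei and 0 to 3.49 CPM in Gad nuclei. Lmx1a, a LIM homeobox gene of the posterior hypothalamus and midbrain, was at 46.7 to 161 CPM in Slc17a6 nuclei and at 0 to 26.3 CPM in Gad nuclei (log2 difference 3.99 ± 0.42, SE).

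Ret, the receptor kinase for GDNF-family ligands, was higher in Slc17a6 nuclei by 3.07 ± 0.48 (log2, SE). The matrix and adhesion genes Fras1 (3.48 ± 0.34), Adamts2 (3.23 ± 0.36) and Itgae (3.76 ± 0.64) were also higher, with Trim68 (3.31 ± 0.56), a ubiquitin ligase gene, and Ttc6 (3.14 ± 0.37). These genes were named only because every library had a higher CPM in its Slc17a6 nuclei than in its Gad nuclei, besides a large difference. That order, which 4.17% of all genes had, was thus fixed by the choice and is no further support. All of them are low genes, at most 229 CPM, and ad-libitum-fed library 2 entered with 6 Slc17a6 nuclei.

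Gad nuclei carried peptides. Nts encodes neurotensin, a peptide of lateral hypothalamic Lepr neurons, and stood in Gad nuclei at 121, 105, 2021 and 3317 CPM with food and at 11.8 and 24.3 CPM after the fast. Slc17a6 nuclei held 28.0, 0, 107 and 13.3 CPM and then 0 and 0, lower in every library, with a log2 difference of -5.27 ± 0.36 (SE; edgeR adjusted p 5.87e-11). Gal, which encodes galanin, was at 48.2, 87.8, 1216 and 1075 and then 19.7 and 16.2 CPM in Gad nuclei and at most 40.0 CPM in Slc17a6 nuclei (-4.73 ± 0.26). Both peptides were far higher in Gad nuclei of libraries 3 and 4 with food than elsewhere, and the order of the sides held in 6 of 6 libraries.

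Of the 28 listed feeding peptides, 19 passed the count filter. Among the 19, 3 were higher in Slc17a6 nuclei and 8 in Gad nuclei, against 3.19% and 2.43% of all genes. The glutamatergic ones were Tac1, the substance P precursor (2.28 ± 0.23), Adcyap1, the PACAP precursor (2.53 ± 0.36), and the neurotrophin Bdnf (2.22 ± 0.39). Tac1 reached 1179 and 1343 CPM in Slc17a6 nuclei of libraries 3 and 4 with food and 83.2 and 148 CPM in those of the fasted libraries. Besides Nts and Gal, the Gad side had Cartpt, the CART peptide precursor (-2.67 ± 0.22), Crh (-6.74 ± 0.44), Ghrh (-5.43 ± 0.29), Penk, Npy and Vgf. Ghrh came mostly from the 8 nuclei of sub-cluster 12, where it stood at 6241 CPM against 8.80 CPM in the other members, and which had a median of 3.5 Lepr UMIs. Crh rested on Gad nuclei of libraries 3 and 4 with food, which held 111 and 118 UMIs, with 1 UMI in fasted library 1 and 0 in the other Gad nuclei. Nts, Gal and Cartpt were the peptides lower in the Slc17a6 nuclei of every library, against 6.36% of all genes. The median log2 difference of the 19 peptides was -0.64, against -0.01 over all genes tested.

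The receptor list split evenly, with 5 higher and 5 lower among 18 tested, against 3.19% and 2.43% of all genes. Htr2c, the serotonin receptor through which serotonergic drugs curb feeding, stood at 881, 922, 751 and 760 CPM in ad-libitum-fed Slc17a6 nuclei and at 777 and 1116 CPM in fasted ones. In Gad nuclei it stood at 422, 263, 319 and 199 and then at 130 and 68.8 CPM, lower in every library (log2 difference 2.07 ± 0.23, SE). The prolactin receptor gene Prlr (1.51 ± 0.27), Oprk1 and Cnr1 were also among those higher in Slc17a6 nuclei. Ghr, the growth hormone receptor (-1.54 ± 0.17), Igf1r (-1.33 ± 0.29), Nr3c1, the glucocorticoid receptor (-1.32 ± 0.28), Esr1 and Npy5r were higher in Gad nuclei.

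Of 9 listed regional factors tested, 4 were higher in Slc17a6 nuclei and 4 in Gad nuclei, against 3.19% and 2.43% of all genes. Foxp2 (2.80 ± 0.25) and Nr4a2 were among those higher in Slc17a6 nuclei. Isl1 (-3.35 ± 0.30), Prox1 (-3.09 ± 0.38), Dlx1 and Ebf1 were higher in Gad nuclei. Isl1, a LIM factor of developing hypothalamic GABA and peptide neurons, was at 109 to 199 CPM in Gad nuclei and at 0 to 40.3 CPM in Slc17a6 nuclei. Ddc, the decarboxylase that makes dopamine and serotonin, was higher in Slc17a6 nuclei (2.65 ± 0.27), as were Slc18a2, the vesicular monoamine transporter (1.68 ± 0.35), and Nos1, the neuronal nitric oxide synthase (1.84 ± 0.29). Slc32a1, the vesicular GABA transporter that the division did not use, was higher in the Gad nuclei of every library (log2 difference -3.30 ± 0.36), at 8.78 to 147 CPM against 0 to 13.3 CPM. Hdc, the histamine-forming enzyme, was also higher in Gad nuclei, on 22 and 80 UMIs in ad-libitum-fed libraries 2 and 3 and at most 2 in the other Gad nuclei.

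Of 15 leptin signalling genes tested, 0 passed the edgeR threshold, against 5.63% of all genes. Among the 15, 2 had an unadjusted p under 0.05 and 0 passed by DESeq2. Galnt14 (-3.61 ± 0.37), a mucin-type glycosyltransferase gene, Ecel1 (-3.44 ± 0.30), an endothelin-converting-enzyme-like peptidase gene, the neurexin gene Nrxn3 (-2.96 ± 0.14) and the transcription factor gene Nfib (-2.85 ± 0.42) completed the genes with the largest differences toward the Gad side. Mbnl3, a muscleblind-like RNA-binding protein gene, had no UMI in any Slc17a6 nucleus. In Gad nuclei it stood at 84.4, 79.0, 44.8 and 83.8 CPM and then at 47.3 and 64.7 CPM.

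**Figure D2:**
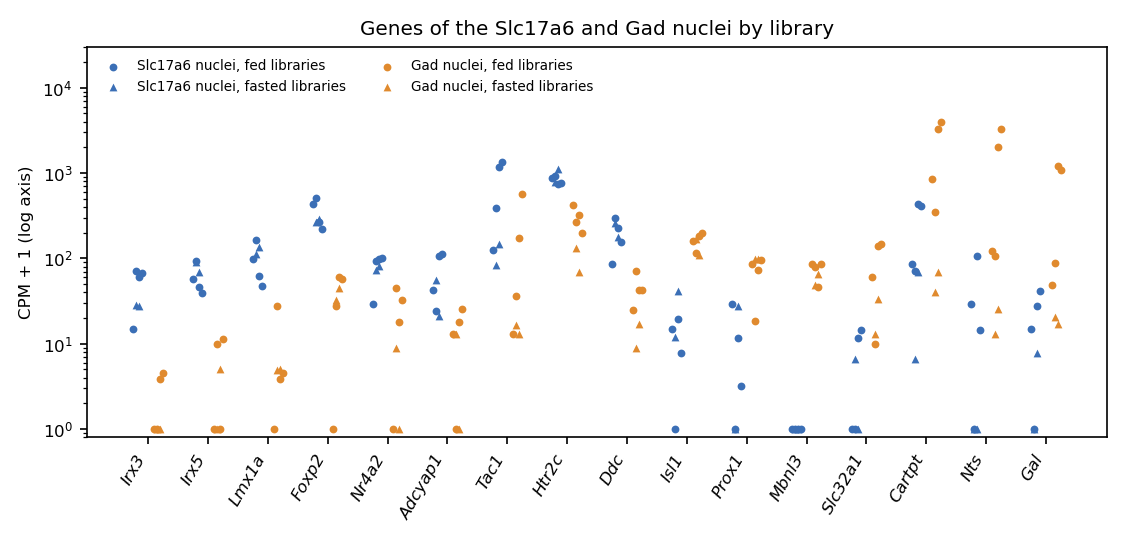
CPM + 1 on a log axis for 16 genes in the Slc17a6 nuclei (blue) and Gad nuclei (orange) of each library, ad-libitum-fed libraries as circles and fasted ones as triangles. The 9 genes on the left up to Ddc passed the test toward the Slc17a6 side and the 7 on the right toward the Gad side; Cartpt and Nts of Gad nuclei range from 39.4 to 3935 and from 11.8 to 3317 CPM across libraries.

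The sequences before 3 of the genes named here are shown because they hold the recognition letters of factors that act downstream of cyclic AMP, of activity-induced AP-1 factors and of STAT factors. The start sites and bases are those of the RefSeq table for GRCm38.p6, read on the gene's strand, and the match is in capitals. For Nts the shown stretch is chr10:102490487-102490668, for Cartpt chr13:99900777-99900806 and for Socs3 chr11:117969502-117969531, all on the minus strand.
Nts: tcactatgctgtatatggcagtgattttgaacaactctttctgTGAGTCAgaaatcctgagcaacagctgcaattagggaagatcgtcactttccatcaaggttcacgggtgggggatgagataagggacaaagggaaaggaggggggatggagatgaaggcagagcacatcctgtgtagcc
Cartpt: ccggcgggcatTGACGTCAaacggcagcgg
Socs3: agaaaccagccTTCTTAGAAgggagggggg

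Nts matched TGANTCA from 207 to 201 bases before its start, Cartpt matched TGACGTCA from 112 to 105 bases before, and Socs3 matched TTCNNNGAA from 154 to 146 bases before. Both strands were searched over 300 bases, from 250 before to 50 after each start, and no pattern lies inside another. Of 32851 promoters in the table, 6.75% held TGANTCA, 1.55% held TGACGTCA and 7.02% held TTCNNNGAA. Bdnf, which is not shown, matched TGANTCA in 1 and TTCNNNGAA in 1 of its 7 promoters. Gal, Tac1, Ghrh, Adcyap1, Irx3, Lmx1a, Isl1, Fos and Lepr held none of the 3. A match describes letters and no binding was measured.

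Against Lepr-0 neurons, Lepr neurons were higher in the leptin signalling genes Stat3, Irs4, Socs3 and Foxo1. Of 43 listed receptors, 6 were higher, Glp1r and Calcr among them, and 8 were lower. Lepr neurons were lower in the magnocellular, orexin and MCH peptides and in 17 of 46 regional factors, with 8 higher. With the pool as a block, 1209 of 22640 genes (5.34%), Lepr included, passed the edgeR threshold, 426 (1.88%) higher and 783 (3.46%) lower. The share that was higher was 35.2% with TMM and 47.9% with the size factors of DESeq2, so the balance of directions depended on the scaling. By DESeq2 502 genes passed, and after thinning every nucleus to 2000 UMIs 363 did. Of 85 named genes followed across the alternatives, 27 were weaker by DESeq2 and 31 after thinning.

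Stat3, the factor that the receptor activates, stood at 110, 79.4, 101 and 90.5 CPM in ad-libitum-fed and at 119 and 98.6 CPM in fasted Lepr neurons. Lepr-0 neurons held 40.9, 39.3, 34.0 and 31.8 and then 42.6 and 44.3 CPM, so the classes did not overlap (3.28% of all genes were higher in every library), with a log2 difference of 1.31 ± 0.12 (SE; edgeR adjusted p 9.25e-26). Irs4, an adaptor of insulin and leptin signalling, differed by 1.58 ± 0.20, and Foxo1, a factor restrained by insulin signalling, by 1.19 ± 0.22, although Foxo1 was not higher in ad-libitum-fed library 1 (10.3 against 10.6 CPM). Socs3 differed by 2.06 ± 0.57 on 1 to 5 UMIs per library in Lepr neurons, at 3.55 to 6.88 CPM against 0.796 to 2.13 CPM. These 4 were the calls among 24 genes of the list that the rule did not use, all higher, against 1.88% of all genes. Jak2 gave a log2 difference of 0.05 ± 0.14. The median over the 24 was 0.03, against -0.07 over all genes tested.

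Of 43 receptors tested, 6 were higher and 8 lower, against 1.88% and 3.46% of all genes. The higher ones included Glp1r, the receptor of the gut hormone GLP-1 (1.78 ± 0.43), Calcr, the calcitonin receptor that also serves amylin (1.61 ± 0.16), Ghr (1.03 ± 0.09), Htr2c (0.97 ± 0.09) and Hcrtr2, an orexin receptor (0.57 ± 0.12). Glp1r stood at 5.32 to 14 CPM in Lepr neurons and at 2.03 to 3.07 CPM in Lepr-0 neurons, higher in 6 of 6 libraries. The lower ones were Tacr1 (-1.74 ± 0.30), Tacr3, Galr1, Htr1b, Igf1r, Oprm1, Cnr1 and Prlr.

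Of 28 peptides, 7 were higher and 11 lower, against 1.88% and 3.46% of all genes. Nts (2.78 ± 0.13) stood at 41.3, 149, 951 and 1218 CPM in ad-libitum-fed and at 7.09 and 12.5 CPM in fasted Lepr neurons. In Lepr-0 neurons it stood at 13.4, 14.7, 98.1 and 114 CPM and then at 5.94 and 5.71 CPM, lower in each library. Cartpt (2.10 ± 0.11), Tac1 (1.80 ± 0.11), Crh (4.08 ± 0.31), Gal, Vgf and Ghrh were the other higher peptides. Ghrh, at 2.12 ± 0.14, rested on 331 and 122 UMIs in ad-libitum-fed libraries 3 and 4, mostly from the 8 nuclei of sub-cluster 12, and turned to -1.02 when the members needed 5 Lepr UMIs.

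The lower peptides included Oxt (-1.92 ± 0.14), Avp (-1.85 ± 0.13), Pmch (-1.70 ± 0.14) and Hcrt (-1.68 ± 0.15), which are abundant peptides of cells other than these. Oxt, Avp, Hcrt and Pmch together came to 179, 177, 537 and 677 CPM in ad-libitum-fed Lepr neurons and to 63.8 and 55.6 CPM in fasted ones. Oxt UMIs were found in 43.6% of Lepr neurons, 35.4% of Lepr-0 neurons and 6.86% of oligodendrocyte nuclei, whose median depths were 8567, 6301 and 2311 UMIs. In nuclei thinned to 2000 UMIs the shares were 19.9%, 15.1% and 4.37%, and the part of free RNA in them was not tested. All of these shares pool libraries with unequal Oxt. Lepr-0 neurons held 1044 and 1080 CPM in ad-libitum-fed libraries 3 and 4 and 21.4 and 19.7 CPM in the fasted ones. Libraries 3 and 4 gave 13 and 14 of the oligodendrocyte nuclei and the fasted ones 338 and 353, so the classes were not matched by library. Sst, Trh, Tac2, Kiss1, Npvf, Pnoc and Cck were also lower.

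Of 46 regional factors, 8 were higher and 17 lower, against 1.88% and 3.46% of all genes. Bnc2, a zinc finger gene, was at 3.62 to 51.4 CPM in Lepr neurons and at 0.655 to 3.72 CPM in Lepr-0 neurons (3.32 ± 0.37), and Nr4a2, an orphan nuclear receptor of dopamine neurons, at 10.3 to 74.8 CPM and 4.81 to 8.39 CPM (2.53 ± 0.21). Prox1, Ebf1, Foxp2 and Tbx19 were also among the higher factors. Sim1 of the paraventricular nucleus (-2.39 ± 0.26), Fezf1 (-2.35 ± 0.47) and Nr5a1 (-1.47 ± 0.47) of the ventromedial nucleus, Lhx1, Six3, Six6, Nkx2-1 and Onecut2 were among the lower ones. Onecut3 had 0 UMIs in all Lepr neurons and 2.75 to 6.58 CPM in Lepr-0 neurons.

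Outside the lists, the largest differences among called genes with a mean of at least 20 CPM that moved one way in every library went to Ttc6 (3.08 ± 0.23), Mbnl3 (2.83 ± 0.24), Gulp1, an engulfment adaptor gene (2.52 ± 0.12), Lmx1a (2.36 ± 0.20), the polarity gene Pard3b (2.08 ± 0.10) and Gpr179, an orphan receptor gene (1.98 ± 0.23). Gulp1 stood at 108 to 189 CPM in Lepr neurons and at 19.0 to 25.9 CPM in Lepr-0 neurons. Toward Lepr-0 neurons were Adamtsl1 (-2.35 ± 0.18), Stxbp6, a syntaxin-binding protein gene (-2.01 ± 0.19), the noncoding RNA gene Sox2ot (-1.98 ± 0.12), Adarb2 (-1.98 ± 0.11), Zeb2, the cadherin gene Cdh7 and Rskr. The monoamine genes Slc6a3, the dopamine transporter (3.68 ± 0.44), Ddc (1.42 ± 0.12) and Slc18a2 (1.12 ± 0.15) were higher, with Slc6a3 at 8.44 to 19.5 CPM against 0.791 to 1.5 CPM, on 3 to 14 UMIs per library.

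Clustering the 351 nuclei gave 12 sub-clusters. The genes that lead a sub-cluster also built it, so what follows is a description with no test. Sub-cluster 1, of 75 nuclei, had Pard3b, Tll1 and Bdnf among its leading genes and held 50 Slc17a6 and 6 Gad nuclei. Sub-cluster 4, of 37 nuclei, was led by Npsr1, Foxp2, Tac1 and Crhbp and held 27 Slc17a6 and 0 Gad nuclei. Both had Htr2c UMIs in nearly every nucleus (100% and 97.3%), Tac1 in 88.0% and 91.9%, Ddc in 86.7% and 81.1% and Lmx1a in 70.7% and 62.2%. Bdnf UMIs were in 53.3% of sub-cluster 1 and in 16.2% of sub-cluster 4. Slc6a3 UMIs were in 25.3% and 29.7% of these nuclei and in at most 3.23% of any other sub-cluster. Among oligodendrocyte nuclei, 2.94% had a UMI of Htr2c, 1.96% of Nts and 0 of 919 of Slc6a3. Of the 919, 338 and 353 came from the fasted libraries and 13 and 14 from ad-libitum-fed libraries 3 and 4. Lepr-0 neurons held Nts at 98.1 and 114 CPM in libraries 3 and 4 and at 5.94 and 5.71 CPM in the fasted ones. The pooled shares therefore do not give the background of libraries 3 and 4.

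The Gad nuclei fell into several sub-clusters. Sub-cluster 3, of 39 nuclei with 36 Gad and 0 Slc17a6 nuclei, was led by Nts, Crh and Cartpt, with Nts UMIs in 92.3% of its nuclei, Gal in 84.6%, Penk in 56.4% and Crh in 53.8%. It made up 8.51%, 5.88%, 20.0% and 21.1% of the ad-libitum-fed members and 4.55% and 2.94% of the fasted ones. Sub-cluster 5, of 31 nuclei, was led by Nfib and Bnc2, and sub-cluster 7, of 26 nuclei, by Ebf1 (96.2% of nuclei) and Gpc5, with Glp1r UMIs in 30.8% of its nuclei and Bnc2 in 42.3%. Sub-cluster 6, of 28 nuclei, was led by Setdb2, Gpr179 and Cntn3, and it had 0 nuclei in ad-libitum-fed library 4. Sub-cluster 12, of 8 nuclei that were all Gad nuclei, had Ghrh and Gal UMIs in every nucleus.

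Some sub-clusters carried genes of the types the rule set out to remove. Sub-cluster 9, of 18 nuclei, was led by Pdgfd, Npy, Acvr1c and Ptprk, with Npy UMIs in 83.3% of its nuclei, 1 Agrp UMI in 66.7% and Otp in 9 of 18. It held 1, 1, 0 and 0 of the ad-libitum-fed members and 8 and 8 of the fasted ones. Sub-cluster 11, of 11 nuclei, was led by Pomc, with a UMI in 63.6% of its nuclei. Results were also computed without both. Sub-cluster 2, of 48 nuclei with 16 Slc17a6 and 20 Gad nuclei, was led by Adarb2 and Sst and held 7 of the 20 marked doublets. Sub-cluster 8 was mostly Slc17a6 nuclei (11 of 18), with Nr5a1 and Fezf1 UMIs in 22.2% each, and sub-cluster 10, of 12 nuclei, was led by Maf, Dach1 and Tbx19. Its leading genes also held Bicc1, Anxa5, Apoe (732 CPM against 55.4 in the other members) and Ptn (1047 against 93.8 CPM), Col1a1 stood at 467 CPM, and 2 of the 3 members with fibroblast UMIs were in it.

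**Figure D3:**
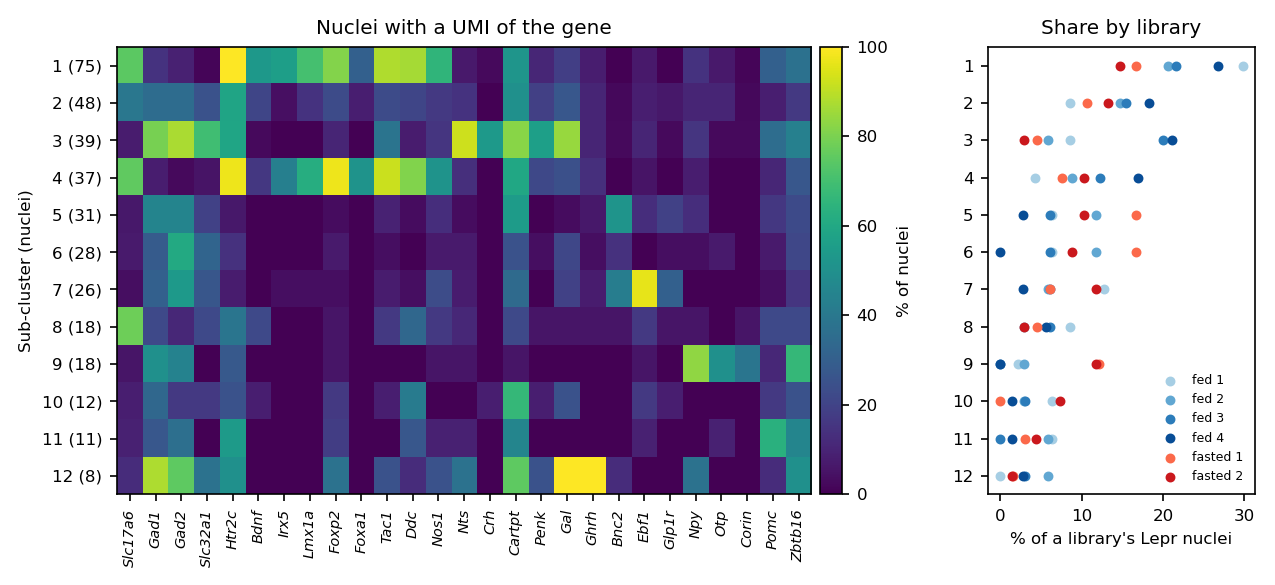
Left, percentage of the nuclei of each of 12 sub-clusters with at least 1 UMI of each gene, with the number of nuclei in parentheses. Right, the share of each library's Lepr nuclei in each sub-cluster, where the Nts-led sub-cluster 3 is largest in ad-libitum-fed libraries 3 and 4 (20.0% and 21.1%) and the Npy-led sub-cluster 9 in the fasted libraries (12.1% and 11.8%).

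Whether the fast changed expression in Lepr neurons was tested on the summed counts of 2 ad-libitum-fed pools and 1 fasted pool. By edgeR 0 of 9936 genes (0%) passed, with 166 at an unadjusted p under 0.05, and by DESeq2 1 did. Since the pool of each ad-libitum-fed library is not given, the largest p over the 3 possible pairings was kept. Pairing libraries 1 with 2 and 3 with 4 gave 0 calls, and the other pairings gave 2668 and 2689. The first pairing joins libraries that correlated at 0.862 and 0.959, and the others join libraries that correlated at 0.707 to 0.736. The counts of 2668 and 2689 therefore rest on pools made of unlike libraries and are not read as fasting changes. The 2 fasted libraries came from 1 pool, so the fast and that pool cannot be told apart. The fasted values exceeded each of the 4 values with food for 1588 genes (16%) and fell short of each for 944 (9.5%). The values that follow are therefore descriptions, and fewer nuclei of a type and less RNA per nucleus cannot be told apart in sums.

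Zbtb16, a zinc finger factor induced by glucocorticoids, stood at 37.8, 9.34, 18.7 and 33.8 CPM in ad-libitum-fed Lepr neurons and at 88.6 and 115 CPM in fasted ones, with an edgeR log2 change of 1.86 ± 0.43 (SE; unadjusted p 0.00768). The libraries did not overlap. Lepr-0 neurons held 15.7 to 17.7 CPM with food and 71.1 and 72.6 CPM after the fast, so the gene stood higher there too. Fkbp5, another glucocorticoid target, stood at 51.6, 32.7, 35.0 and 33.8 and then at 56.7 and 87.8 CPM. It was higher in fasted Lepr-0 neurons as well, at 22.5 to 34.0 and then at 55.0 and 51.2 CPM. Of the 16 glucocorticoid and FoxO target genes tested, Zbtb16, Fkbp5, Sesn1 and Foxo1 lay above all ad-libitum-fed libraries and Mt1 below, 4 of 16 against 16% of all genes.

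Foxo1 stood at 10.3, 23.3, 11.2 and 15.7 CPM with food and at 56.7 and 37.6 CPM after the fast (1.61 ± 0.50, edgeR unadjusted p 0.0229), without overlap. Lepr-0 neurons held 6.69 to 10.6 and then 15.3 and 14.6 CPM. AgRP neurons, defined further on, held 43.5 to 87.9 and then 155 and 154 CPM. The Npy-led sub-cluster 9 held 1, 1, 0 and 0 ad-libitum-fed and 8 and 8 fasted members, and its part in the Foxo1 change was not tested. Pik3r1 and Pik3ca, subunits of the lipid kinase that relays insulin and leptin signals, also lay above all ad-libitum-fed libraries in Lepr neurons, at 58.5 and 87.8 against 31.2 to 47.0 CPM and at 78.0 and 84.2 against 28.0 to 54.3 CPM. Of 19 leptin signalling genes tested, 3 lay above and 0 below, against 16% and 9.5% of all genes. Lepr itself, which chose the nuclei, was at 605, 612, 331 and 350 CPM and then at 519 and 539 CPM.

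Outside the lists the widest gaps above were those of Gpr179, Ypel2, Dnah5, Phldb1, Gng12, Tmem184b, Setd7, Rab40b and Brf1, with Zbtb16. Gpr179 stood at 24.1, 18.7, 16.2 and 7.24 CPM and then at 78.0 and 59.1 CPM, and it led sub-cluster 6, which made up 6.38%, 11.8%, 6.15% and 0% of ad-libitum-fed members and 16.7% and 8.82% of fasted ones. Ypel2, a gene of the Yippee family, stood at 34.4, 23.3, 40.0 and 28.9 and then at 94.0 and 96.8 CPM. Lepr-0 neurons had 35.7 to 42.2 and then 73.8 and 79.4 CPM of Ypel2.

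Cartpt, Nts and Gal were among the peptide transcripts that stood lower in the fasted libraries. By edgeR 0 of the 20 listed peptides tested passed. Cartpt stood at 316, 308, 1739 and 1720 CPM with food and at 28.4 and 55.6 CPM after the fast, with a log2 change of -4.73 ± 1.31 (SE; unadjusted p 0.0155). All 4 ad-libitum-fed libraries lay well above both fasted ones. In Lepr-0 neurons Cartpt was at 62.7, 73.7, 234 and 226 CPM and then at 24.1 and 33.6 CPM. Nts, at -6.02 ± 1.92, and Gal, at 27.5, 51.4, 555 and 417 and then 12.4 and 10.8 CPM, had the same order. Of 20 peptides tested, 13 lay below all ad-libitum-fed libraries, Oxt and Pmch among them, against 9.5% of all genes, and 1, Npy, above. The median log2 change of the 20 was -2.93 against -0.01 over all genes. This order was not particular to Lepr neurons. The 28 listed peptides summed to 704, 777, 4381 and 4168 and then 373 and 362 CPM in Lepr-0 neurons. In AgRP neurons they summed to 903, 1154, 5798 and 5999 and then 733 and 642 CPM.

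The same libraries were low in Oxt, Pmch, Hcrt and Avp, which other hypothalamic neurons make, and in ribosomal protein and mitochondrial transcripts, as given above. Uqcrb and Chchd10, nuclear genes of mitochondrial proteins, were among the widest gaps below, Uqcrb at 34.4, 28.0, 140 and 166 and then at 3.55 and 5.38 CPM. Myg1, H2bu2, Psmc4 and Med28 were also among them. The part of RNA quality and of free RNA in these differences was not tested.

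**Figure D4:**
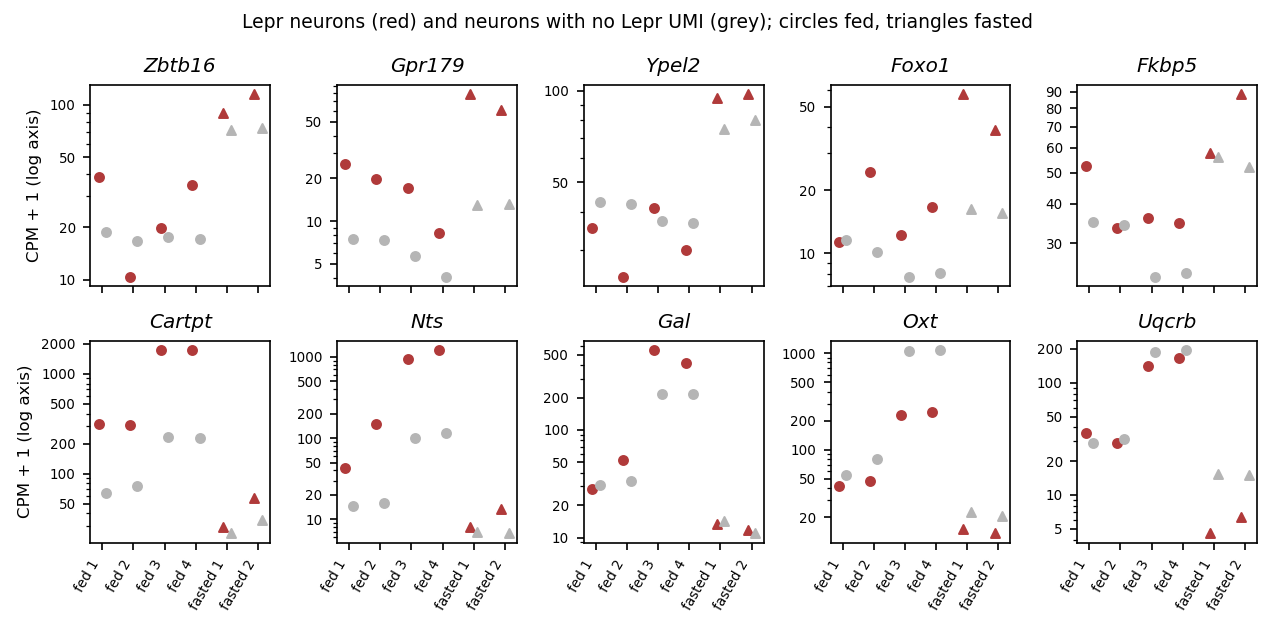
CPM + 1 on log axes for 10 genes in Lepr neurons (red) and in neurons with no Lepr UMI (grey), ad-libitum-fed libraries as circles and fasted ones as triangles. Fasted Zbtb16 is at 88.6 and 115 CPM against at most 37.8 CPM, and Cartpt at 28.4 and 55.6 CPM against at least 308 CPM, in Lepr neurons.

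Within the sides, 0 of 6673 genes (0%) passed by edgeR in Slc17a6 nuclei, with 487 at an unadjusted p under 0.05 and 0 by DESeq2, and 0 of 6601 (0%) in Gad nuclei, with 432 and 1. In Slc17a6 nuclei 757 genes (11.3%) lay above and 611 (9.16%) below all ad-libitum-fed libraries, and in Gad nuclei 962 (14.6%) and 552 (8.36%). Gad nuclei had Cartpt at 844, 351, 3245 and 3935 and then at 39.4 and 68.8 CPM, and Foxo1 at 12.1, 26.3, 11.2 and 6.98 and then at 78.8 and 52.6 CPM. Foxo1 of Gad nuclei rested on 1, 3, 4 and 2 UMIs with food and on 20 and 13 after the fast.

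The widest gaps above in Gad nuclei belonged to Dnah5, Msra, Adcy2, Ptprk, Npy, Tmem184b, Fbxw8, Abcg1, Prss36 and Rad18, and those below to Atp6v1f, Arxes1, Cartpt, Tmem176b, Uqcrb, Nts, Cisd1, Chchd10, Scand1 and Sparc. Adcy2, an adenylyl cyclase gene, stood at 60.3, 17.6, 70.1 and 48.9 and then at 189 and 287 CPM. Ptprk and Npy lead the Npy-led sub-cluster 9, and without that and the Pomc-led sub-cluster the log2 change of Ptprk was -0.21 in place of 1.49. In Slc17a6 nuclei the genes above were Lzts1, Cpeb1, Casz1, Prkd1, Ppp4r1l-ps, Zswim5, Orai2, Tmtc2, Rims4 and Ugdh. Cpeb1, a regulator of cytoplasmic polyadenylation, stood at 56.0, 46.1, 74.8 and 64.5 and then at 172 and 168 CPM. Those below were Tbcc, Gpx1, Timm13, Snrpf, Gid8, H2bu2, Epb41l4a, Chmp2a, Rtl8a and Sec61b, each at 0 or 1 UMI per fasted library.

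The fasting change differed between the sides for 14 of 7764 genes (0.18%) in an interaction test, again with 1 fasted pool, 11 (0.142%) with the larger change toward higher values in Slc17a6 nuclei and 3 (0.0386%) the other way. DESeq2 called 0 of them. Htr2c was among them, with a difference of 1.79 ± 0.36 between the log2 changes (SE; edgeR adjusted p 0.00952), with Gad nuclei at 199 to 422 CPM with food and at 130 and 68.8 CPM after the fast and Slc17a6 nuclei between 751 and 1116 CPM. The 6 sub-clusters with the most Gad nuclei had unequal Htr2c. The Nts-led sub-cluster 3, with Htr2c at 321 CPM, took 8.51%, 5.88%, 20.0% and 21.1% of the ad-libitum-fed members and 4.55% and 2.94% of the fasted ones. Sub-cluster 5, with Htr2c at 10.1 CPM, took 6.38%, 11.8%, 6.15% and 2.82% and then 16.7% and 10.3%. Sub-cluster 6, at 25.3 CPM, took 6.38%, 11.8%, 6.15% and 0% and then 16.7% and 8.82%, and sub-cluster 9, at 41.8 CPM, took 2.13%, 2.94%, 0% and 0% and then 12.1% and 11.8%. Sub-cluster 2, at 271 CPM, took 8.51%, 14.7%, 15.4% and 18.3% and then 10.6% and 13.2%, and sub-cluster 7, at 65.0 CPM, took 12.8%, 5.88%, 6.15% and 2.82% and then 6.06% and 11.8%. The part of this makeup in the difference was not tested. Ebf1, which marks sub-cluster 7, had a difference of -4.53 ± 0.96. Among all genes the ratio of the sides in both fasted libraries exceeded every ratio with food for 6.3% and fell short of every one for 7.75%. Leaving out ad-libitum-fed library 1, 3 or 4 gave 0 calls each time, and leaving out the 3 nuclei with fibroblast UMIs gave 1.

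AgRP neurons, defined by at least 8 Agrp UMIs per 10000, were the nearest leptin-responsive type for comparison, and there were 425 of them. The difference between their fasting changes was tested as an interaction, with 1 fasted pool in each type, so that SE and p rest on the spread of the 2 ad-libitum-fed pools and the fast cannot be told apart from that pool. The test passed for 40 of 10715 genes (0.373%), 12 (0.112%) with a change toward higher values in Lepr neurons and 28 (0.261%) toward lower. DESeq2 called 2 of the 40. Among the calls toward lower values were 3 listed immediate early genes and Vgf.

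Vgf, a neurotrophin- and activity-induced precursor of secreted peptides, stood at 44.7, 42.0, 96.2 and 127 CPM in ad-libitum-fed and at 24.8 and 30.5 CPM in fasted Lepr neurons. AgRP neurons held 24.0, 22.4, 30.7 and 33.1 CPM and then 146 and 114 CPM, the opposite order, with a difference of -3.94 ± 0.39 between the log2 changes (SE; edgeR adjusted p 0.00145). Fos, the immediate early factor, stood at 20.6, 18.7, 15 and 18.1 and then at 8.86 and 7.17 CPM in Lepr neurons, and at 4.00, 0, 11.5 and 8.57 and then at 58.5 and 59.6 CPM in AgRP neurons (-4.01 ± 0.70). Fos in Lepr neurons rested on 4 to 15 UMIs per library.

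Gem, a calcium- and cyclic-AMP-induced small GTPase gene, went to 139 and 154 CPM in fasted AgRP neurons from at most 19.6 CPM, and stood at 34.4, 4.67, 21.2 and 12.1 and then at 26.6 and 1.79 CPM in Lepr neurons (-3.49 ± 0.50), on 1 to 17 UMIs per library. 1700016P03Rik, a transcript hosting activity-induced microRNAs, differed by -2.07 ± 0.37. These 3, Fos, Gem and 1700016P03Rik, were the calls among 14 immediate early genes tested, against 0.261% of all genes called toward lower values. For 9 of the 14 the ratio of Lepr to AgRP neurons lay below all ad-libitum-fed libraries in both fasted ones, against 8.77% of all genes. The list summed over 32 genes stood at 561, 369, 645 and 713 CPM in ad-libitum-fed and at 548 and 405 CPM in fasted Lepr neurons, and at 324, 368, 630 and 638 and then at 949 and 1156 CPM in AgRP neurons. Egr2 had no UMI in Lepr neurons.

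Other genes with a lower fasting change in Lepr neurons were Ell2, an elongation factor gene (-3.67 ± 0.54), the integrin gene Itgb6 (-3.12 ± 0.54), Sorcs1, a sorting receptor gene (-2.25 ± 0.23), Rad54l2, Zfp804b, the netrin-family gene Ntng1 (-2.02 ± 0.24) and the cadherin gene Cdh13. Sorcs1 was at 234, 229, 232 and 175 and then 220 and 315 CPM in Lepr neurons, and at 108, 80.8, 101 and 98.0 and then 553 and 590 CPM in AgRP neurons. The symbol Arhgap26, which 2 gene identifiers share, was also called. Lepr, which chose the members, is among the 40 and stood at 144, 130, 170 and 113 and then at 555 and 517 CPM in AgRP neurons, given as levels alone since members needed 3 UMIs.

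Genes with a higher fasting change in Lepr neurons included Gpr179 (2.17 ± 0.40), Rgs6, a brake on G-protein signalling (1.98 ± 0.34), the protocadherin gene Fat3 (1.96 ± 0.27), the contactin gene Cntn3 (1.73 ± 0.29), and Lrrc4c, Lingo2, Lrp1b and Tenm2, which encode synaptic adhesion proteins or a receptor. Fat3 stayed at 321 to 509 CPM in Lepr neurons in both states and stood at 148 to 296 and then at 54.0 and 51.4 CPM in AgRP neurons. Pcsk1n (1.23 ± 0.21) and Npy (4.18 ± 0.58) followed. Npy of AgRP neurons was at 352, 494, 4030 and 3867 and then at 394 and 328 CPM, highest in ad-libitum-fed libraries 3 and 4, and Npy of the members was limited by the Agrp rule and came mostly from sub-cluster 9 after the fast.

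**Figure D5:**
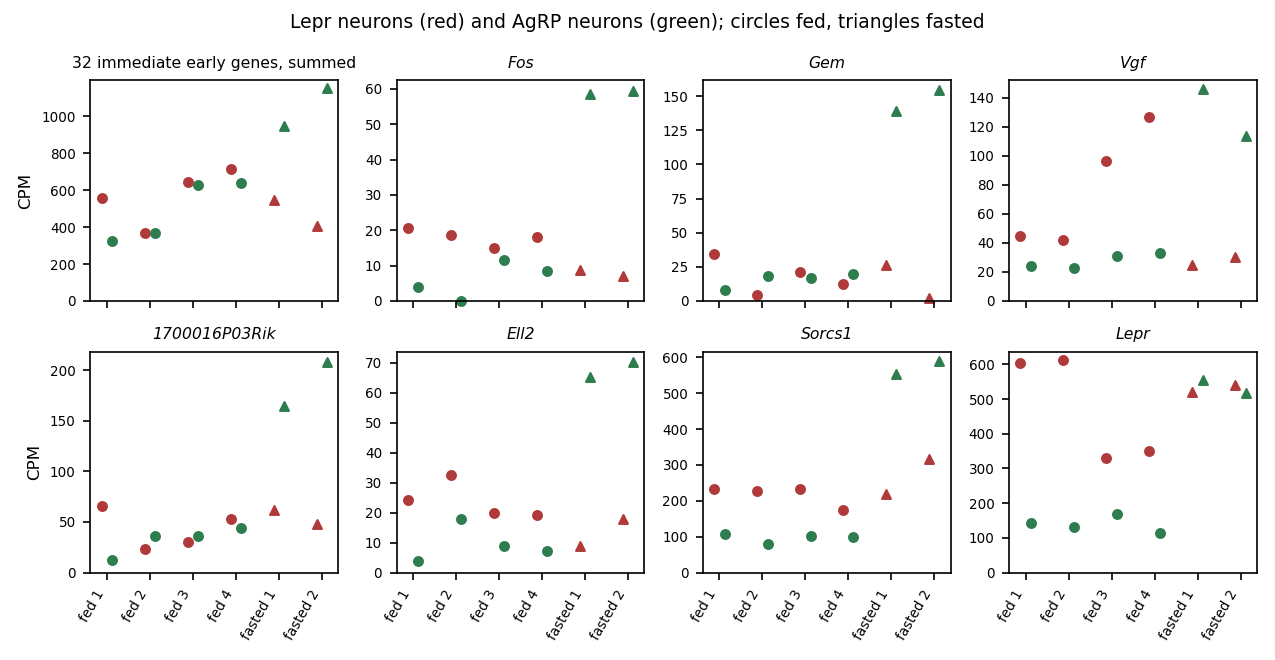
CPM of the summed immediate early list and of 7 genes in Lepr neurons (red) and AgRP neurons (green), ad-libitum-fed libraries as circles and fasted ones as triangles. Fasted AgRP neurons stand at 949 and 1156 CPM for the list and at 58.5 and 59.6 CPM for Fos, and fasted Lepr neurons at 548 and 405 CPM and at 8.86 and 7.17 CPM; Lepr chose the red nuclei.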

How the data were processed

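Nuclei of 6 libraries were sorted on DRAQ5 and sequenced on the 10x platform, and the authors deposited raw UMI counts per gene and nucleus made with Cell Ranger 5.0.1 on mm10. Members and gene lists were chosen with earlier results of these data known. Counts were summed per library and class, and genes with at least 10 UMIs in 2 summed libraries were kept. Classes were compared with edgeR 4.0.16 (quasi-likelihood, TMM, Benjamini-Hochberg, threshold 0.05) in R 4.3.3. As the pool of each ad-libitum-fed library is not given, each fit was run under 3 pairings and the largest p kept. Named genes were the 10 each way with the largest change, or for fasting the widest gap between groups of log2(CPM + 1), a mean of at least 20 CPM and 1 direction in every library, besides listed genes. Permutation tests were exact and two-sided. Clustering used scanpy 1.11.5 (1500 genes, 20 components, 12 neighbours, resolution 1) in Python 3.11.15. DESeq2 1.42.0, thinning to 2000 UMIs and other limits were alternatives. The fits were tested on simulated data. Intervals cover counting error only. Some genes that the counts of lists and of calls include are not reported here.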

Additional observations from a re-analysis of the deposited data

Results flagged for a closer look

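The fasting change differed between Slc17a6 and Gad nuclei for 14 genes and between Lepr neurons and AgRP neurons for 40, by a test of the difference itself, with each gene's value the log2 change in the first class minus that in the second. The fasted arm of both tests is 1 pool, so a difference due to the fast and one due to that pool cannot be told apart. DESeq2 called 0 and 2 genes, and the first count was 0 without ad-libitum-fed library 1, 3 or 4.

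Between Slc17a6 and Gad nuclei the genes that met the rule for named genes, all toward higher values in Slc17a6 nuclei, were Brinp2 (2.48), Zfp385b (2.12), Htr2c (1.79), Pcdh11x (1.79), Aff2 (1.67), Plcb1 (1.44) and Cadps2 (1.31). Pcdh11x, a protocadherin gene, stood at 205, 193, 115 and 140 CPM in ad-libitum-fed Gad nuclei and at 74.9 and 8.09 CPM in fasted ones, with 366 to 507 CPM in Slc17a6 nuclei. Plcb1, a phospholipase gene, stood at 286 to 663 CPM in ad-libitum-fed Gad nuclei and at 197 and 214 CPM in fasted ones. Among the 4 ad-libitum-fed libraries no single one stood apart by Dixon's test in the values tested, which chance alone would meet in about 1 of 20 groups, and which cannot show that libraries 3 and 4 stand apart as a pair. The 2 fasted libraries were too few for it.

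Between Lepr and AgRP neurons, the changes toward higher values in Lepr neurons were those of Npy (4.18), Gpr179 (2.17), Rgs6 (1.98), Fat3 (1.96), Cntn3 (1.73), Lrrc4c (1.41), Lingo2 (1.28), Pcsk1n (1.23), Lrp1b (1.22) and Tenm2 (1.04). Those toward lower values were Vgf (-3.94), Ell2 (-3.67), Gem (-3.49), Itgb6 (-3.12), Arhgap26 (-2.45), Sorcs1 (-2.25), Rad54l2 (-2.24), Zfp804b (-2.23), Ntng1 (-2.02) and Cdh13 (-1.81). Lrrc4c stood at 1094 to 1886 CPM in ad-libitum-fed AgRP neurons and at 762 and 642 CPM in fasted ones, and at 806 to 1714 CPM in Lepr neurons of all libraries.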

How the results depend on the processing

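The share of Slc17a6 nuclei was lower after the fast under every alternative run (-9.60 to -25.6 percentage points). Fasting calls depended on how ad-libitum-fed libraries were paired. Pairing those that correlated most (1 with 2, 3 with 4) gave 0 in Lepr neurons and in each side. In Lepr neurons the count went from 0 to 2668 (1 with 3, 2 with 4) and 2689 (1 with 4, 2 with 3), to 213 with no count filter and to 1 by DESeq2, and it was 0 to 0 with a library left out. In Slc17a6 nuclei it was 1360 and 595 under these pairings, 118 with no filter, 43 with 5 Lepr UMIs, 12 after thinning, and 0 to 134 with a library left out, the 134 without ad-libitum-fed library 1. In Gad nuclei it was 1637 and 1637, then 110 with no filter, 1 by DESeq2, 30 with 5 Lepr UMIs, 86 with Agrp and Pomc at 0, and 0 to 5 with a library left out. With the replicate number as a block and 6 libraries as samples, the counts were 269, 13 and 98. Ad-libitum-fed and fasted libraries came from different pools, so equal numbers do not join the same mice. Deviations of same-numbered libraries from their group means correlated at r 0.0043 and 0.0137 across genes. That cannot decide on a pairing, because the deviations of 2 fasted libraries from their mean mirror each other.

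The 437 calls between the sides became 174 by DESeq2, 162 with 5 Lepr UMIs, 281 with Agrp and Pomc at 0, 145 after thinning, and 287 (without ad-libitum-fed library 3) to 424 with a library left out. The 1209 calls against Lepr-0 neurons became 502 by DESeq2, 537 with 5 Lepr UMIs, 756 with Agrp and Pomc at 0, 363 after thinning, and 863 to 1016 with a library left out. Ghrh turned to -1.02 with 5 Lepr UMIs, and Ptprk in Gad nuclei to -0.21 without the sub-clusters led by AgRP or POMC markers, which was chosen after seeing the data, as was leaving out nuclei with fibroblast UMIs. The cause was not tested.

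The 14 calls of the change between the sides became 34 (1 with 2, 3 with 4), 51 (1 with 4, 2 with 3), 34 with 6 separate libraries, 0 by DESeq2, 24 with its size factors, 5 with no filter, 4 without doublets, 8 with 5 Lepr UMIs, 0 with Agrp and Pomc at 0, 0 after thinning, 1 without fibroblast UMIs and 0 to 13 with a library left out. The 40 calls against AgRP neurons became 338 (1 with 3, 2 with 4), 347 (1 with 4, 2 with 3), 212 with 6 separate libraries, 2 by DESeq2, 190 with its size factors, 134 with no filter, 120 without doublets, 19 with 5 Lepr UMIs, 123 with Agrp and Pomc at 0, 236 without the AgRP-led and Pomc-led sub-clusters, 101 without fibroblast UMIs and 67 to 174 with a library left out. Under the size factors of DESeq2 74 of these calls were toward higher and 116 toward lower values in Lepr neurons, against 12 and 28.

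With 1 fasted pool and 34 to 71 members per library, low genes rested on few UMIs.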
